A study of Mus musculus with 24 samples.

Results

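Gene expression in wild-type bone marrow-derived macrophages was compared between 24 h and 8 h of stimulation with LPS and IFN-γ. The comparison was made on 6 of the 24 Illumina MouseWG-6 v2 BeadChip arrays of the study: 3 arrays at 24 h and 3 arrays at 8 h, from the same 3 animals (numbered 2, 3 and 6 in the labels). Wild-type here means Gch1fl/fl mice without cre, so these cells carried the floxed Gch1 allele (loxP sites around an internal part of the gene) but no recombinase. The other genotype, Gch1fl/flTie2cre, carried the same floxed allele together with Tie2cre, which is active in endothelial and bone marrow-derived cells, and came from littermates (animals 1, 4 and 5). All mice were adult females on the C57bl/6J background, and marrow was grown into macrophages in medium conditioned by L929 cells. Cells of each animal were starved of serum, stimulated with LPS and IFN-γ together, and harvested before stimulation (0 h) and at 2, 8 and 24 h. Unstimulated cells kept for 8 or 24 h were not analysed here, so the time since stimulation and the time in culture without fresh medium cannot be told apart.

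LPS, a component of Gram-negative bacterial walls, is sensed by Toll-like receptor 4, which drives NF-kB, MAP kinases and a type I interferon loop. IFN-γ primes macrophages for microbial killing, antigen presentation and nitric oxide production by the inducible synthase Nos2, which needs the cofactor tetrahydrobiopterin made from GTP by Gch1. The early response is known to consist of cytokines, chemokines and immediate early factors, many of which also encode or induce their own inhibitors, whereas the later phase includes metabolic genes and genes of the acute phase response.

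Values are normalized intensities on a log2 scale, in the order animal 2, animal 3, animal 6, and differences are 24 h minus 8 h with their standard error (SE). The test took in the 16498 probes whose detection p was below 0.01 on 3 or more of the 24 arrays. A probe was called higher or lower when limma gave an adjusted p under 0.05 and the fold was over 1.5. Counts of genes use the brightest tested probe of each of 8875 genes. Where a probe was detected on no array at one of the times, a lower bound of the fold ("at least") is given, set at that time by the dimmest detected signal of each array. Of the genes described below, Edn1, Il10, Il27, Serpina3f, Gbp10, Chac1, Ephx1 and Tpx2 were detected on 2 of the 3 arrays at 24 h and Adm on 1, while Klf4, Orm1, Gp6 and Slco4a1 were detected on 2 of the 3 arrays at 8 h and Nicn1 and Ppargc1b on 1. The mean raw intensity was 660 to 1750 on the 24 h arrays, with animal 2 the brightest of the 24 arrays, and 743 to 868 on the 8 h arrays. The share of probes detected was 29 to 32.9% at 24 h and 27.8 to 29.1% at 8 h. Animal 6 stood apart: over the tested probes its 24 h array correlated at 0.936 and 0.942 with those of animals 2 and 3, which correlated with each other at 0.986, and the same order was seen at 8 h (0.965, 0.963 and 0.987). Gch1 itself was in keeping with the labels on both of its probes: on the brighter probe the 12 Gch1fl/flTie2cre arrays spanned 10.43 to 12.27 and the 12 wild-type arrays 12.32 to 14.59. The cells carried the macrophage markers, with 10 of the 10 listed markers on the array detected on all 6 arrays and a summed level of 134000 to 171000 at 24 h and 144000 to 168000 at 8 h (linear normalized intensity). Markers of granulocytes, dendritic cells, lymphocytes, erythroid cells, fibroblasts and endothelium were mostly undetected, with exceptions. The granulocyte markers S100a8 and Mmp8 were detected on all 6 arrays, and that list summed to 12000 to 30500 at 24 h and 18000 to 43400 at 8 h. Prf1 of the T and NK cell list and Pf4 of the erythroid and megakaryocyte list were also detected on all 6 arrays. So were Siglech of the dendritic cell list, Dcn and Acta2 of the fibroblast and stroma list, and Vwf of the endothelial list. The whole T and NK cell list summed to 6480 to 11600 at 24 h and 7960 to 9910 at 8 h. The whole erythroid and megakaryocyte list summed to 5850 to 17600 at 24 h and 8570 to 18900 at 8 h. Fewer cells expressing a gene and less RNA of it per cell cannot be told apart in these bulk samples.

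Between 8 h and 24 h the arrays changed broadly. Of the 16498 probes, 2479 were higher at 24 h (15%) and 2150 were lower (13%), and 6731 had an unadjusted p below 0.05. Counted as genes, 1471 of 8875 were higher (16.6%) and 1104 were lower (12.4%), and the median difference over all genes was 0.05. The counts of each gene list below are to be set beside these shares. Increases were more numerous but smaller. Among genes that changed by more than 3 on the log2 scale, 12 were higher and 45 were lower, whereas among those that changed by 1 to 2 there were 692 higher and 489 lower. In 1995 genes (22.5%) all 3 arrays at 24 h lay above all 3 at 8 h, and in 1463 genes (16.5%) all lay below. The step of single animals correlated at 0.853 between animals 2 and 3, at 0.548 between animals 2 and 6, and at 0.624 between animals 3 and 6, over genes, which are not independent replicates. Without animal 3 the number of probes called was 2745 instead of 4629.

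The 15 largest decreases included a cytokine, an amine-producing enzyme and regulators of blood vessels. Il19, a cytokine of the IL-10 family, was at 5.29, 5.45 and 5.90 at 24 h, against 12.76, 12.26 and 10.83 at 8 h. It was detected on none of the 24 h arrays and was at least 42.6-fold lower there (adjusted p = 6.1e-08). Its mean before stimulation was 5.29, also below the dimmest detected signals. Hdc, which makes histamine from histidine, was at 7.14, 6.73 and 7.5 at 24 h, against 13.36, 12.97 and 12.08 at 8 h, a fall of 51.3-fold (−5.68 ± 0.36, adjusted p = 2e-09). Hdc is also a marker of mast cells and basophils, and the summed level of that marker list was 372 to 432 at 24 h and 4600 to 10800 at 8 h. The other 7 markers of the list on the array (Cpa3, Mcpt8, Fcer1a, Ms4a2, Cma1, Tpsb2 and Prss34) were detected on none of the 6 arrays. Flt1, a receptor of vascular endothelial growth factor, was at 5.47, 5.17 and 6.21 at 24 h, against 10.88, 10.41 and 10.03 at 8 h, and was at least 15-fold lower (adjusted p = 2.8e-10). Edn1, the precursor of the vasoconstrictor endothelin-1, was at 9.26, 6.06 and 6.82 at 24 h, against 11.93, 11.94 and 12.02 at 8 h. Its 8 h arrays were nearly identical while those at 24 h were spread widely (−4.58 ± 0.59, adjusted p = 1e-05).

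Several transcriptional and metabolic regulators stood in the same group. Hopx, a homeodomain-only cofactor, was at least 13.4-fold lower at 24 h (adjusted p = 1.3e-09), and Gfi1, a zinc finger repressor of myeloid genes, was at least 11-fold lower (adjusted p = 7.8e-08). Both were detected on every 8 h array and on no 24 h array. Psat1, an enzyme of serine synthesis, was at 7.78, 6.78 and 7.83 at 24 h, against 11.52, 11.21 and 12.13 at 8 h (−4.16 ± 0.35, adjusted p = 7.8e-08). Fabp3, a fatty acid binding protein, was at 8.35, 8.64 and 10.34 at 24 h, against 13.30, 13.37 and 12.46 at 8 h (−3.93 ± 0.57, adjusted p = 3.5e-05). Hcar2, the receptor of niacin and β-hydroxybutyrate, fell 16.3-fold (−4.02 ± 0.32) and Nox1, a catalytic subunit of an NADPH oxidase, was at least 4.72-fold lower. Serpina3f, a serine protease inhibitor, was at 6.41, 5.14 and 9.18 at 24 h, against 9.93, 10.44 and 12.76 at 8 h (adjusted p = 0.00044). In animal 6 Serpina3f was highest at both times, and the step had the same direction in each animal.

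**Figure D1:**
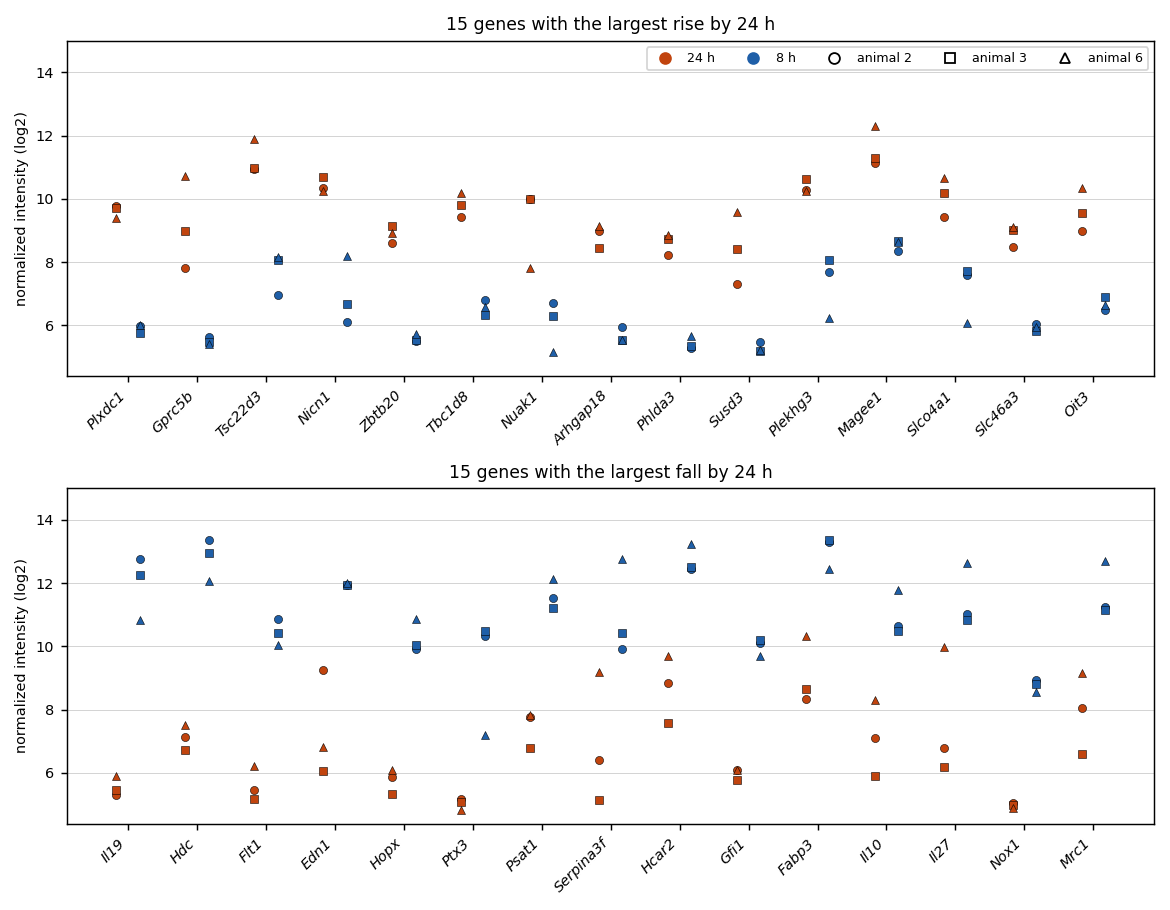
Normalized intensity (log2) of the 15 genes with the largest rise (top) and the 15 with the largest fall (bottom), each point an array, with 24 h left of 8 h and the marker shape giving the animal. By the rule of choice the times do not overlap in any of the 30 genes, and the decreases are the larger: Il19 lies between 5.29 and 5.90 at 24 h and between 10.83 and 12.76 at 8 h, while Plxdc1 lies between 9.39 and 9.77 at 24 h and between 5.75 and 6.00 at 8 h.

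Of the secreted ligands, many inflammatory cytokines and chemokines were lower. Among 26 cytokines tested, 15 were lower and 0 were higher at 24 h, with a median of −1.01, against 12.4% lower and a median of 0.05 over all genes. The list holds Edn1 and Il19 as well. Il6, which acts on B cells and the liver, was at 9.40, 8.36 and 9.76 at 24 h, against 12.19, 12.76 and 13.34 at 8 h, a 12-fold decrease (−3.59 ± 0.33, adjusted p = 2.5e-07). The mean at 0 h was 9.11, so Il6 was back near its starting level. Tnf was at 11.70, 11.92 and 12.20 at 24 h, against 12.94, 13.55 and 13.71 at 8 h (−1.46 ± 0.22, adjusted p = 6.2e-05). Its means at 0 and 2 h were 14.32 and 15.27. The anti-inflammatory cytokine Il10 was at 7.10, 5.91 and 8.31 at 24 h, against 10.64, 10.49 and 11.79 at 8 h (−3.87 ± 0.45, adjusted p = 3e-06), and Il27, which induces Il10 in T cells, fell by 3.85 ± 0.65 (adjusted p = 0.00016).

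Il1b did not follow. It was at 15, 15.39 and 12.63 at 24 h, against 15.57, 15.58 and 14.39 at 8 h, and the difference was not called (−0.84 ± 0.46, adjusted p = 0.18). Animals 2 and 3 were near the top of the scale at both times, and animal 6 was lower at both. Il12b did not pass the detection filter and was not tested.

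Among 18 chemokines, 9 were lower and 1 was higher (median −1.11). Cxcl1, a neutrophil attractant, was at 11.61, 11.42 and 12.42 at 24 h, against 13.79, 14.16 and 13.61 at 8 h (−2.04 ± 0.30, adjusted p = 4.1e-05). Cxcl10, which attracts activated T cells and is a target of interferon, was at 12.95, 12.81 and 12.94 at 24 h, against 14.50, 14.04 and 15.12 at 8 h (−1.65 ± 0.23, adjusted p = 2.3e-05). Ccl6 fell 4.66-fold (adjusted p = 0.0022), and Ccl12, a monocyte attractant, fell 4.17-fold with a call that was lost without animal 3 (adjusted p = 0.062). The exception was Cxcl16, a scavenger receptor and chemokine, at +0.62 (adjusted p = 0.0096). That call was lost with the deposited log2 values and with 3 other settings, which gave differences from 0.16 to 0.73 over all settings.

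Ccl5 and Cxcl9, which attract T cells, did not pass the test. Ccl5 was at 14.90, 15.39 and 15.51 at 24 h, against 15.42, 15.54 and 15.55 at 8 h, and Cxcl9 was at 14.37, 14.79 and 15.51 at 24 h, against 15.21, 15.20 and 15.59 at 8 h. Neither was called (adjusted p = 0.45 each), and the probes were bright, at 0.79 and 0.48 or more of the highest intensity on each of the 6 arrays. Whether signal near the top of the scale limited these differences was not tested.

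**Figure D2:**
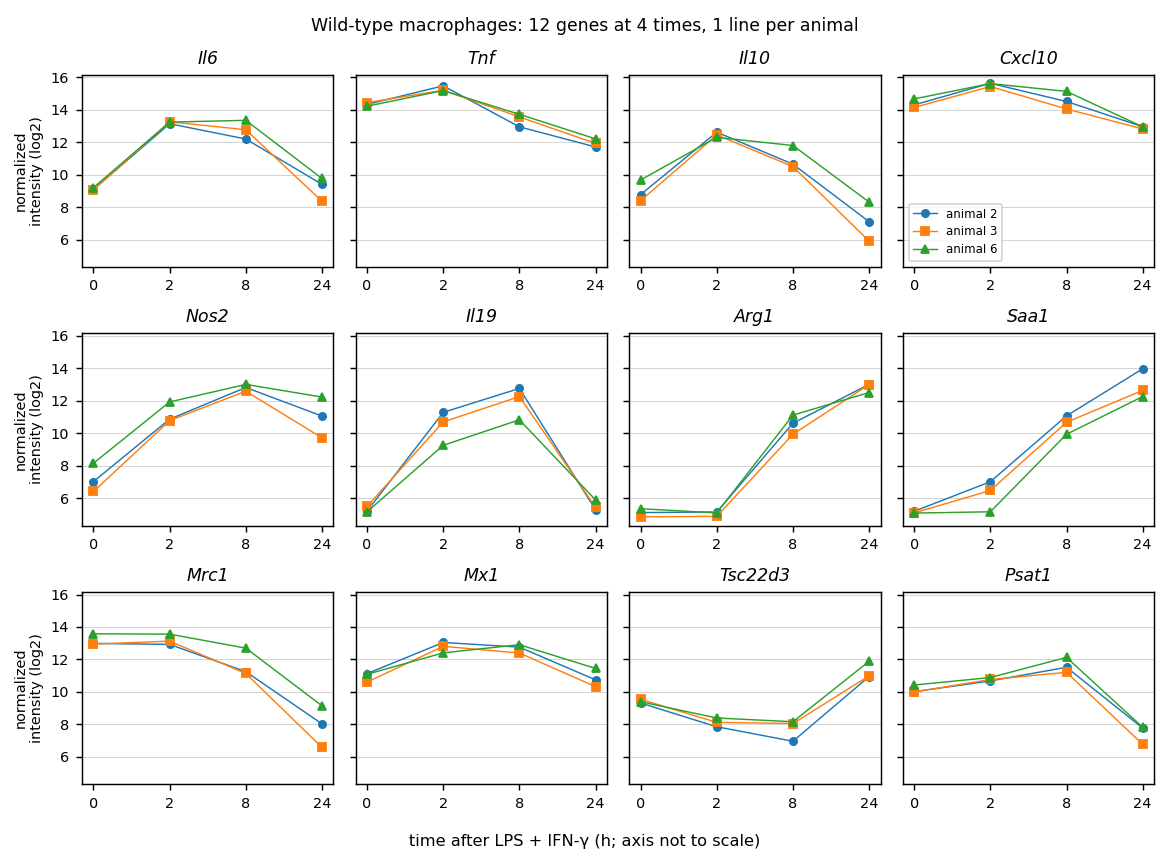
Normalized intensity (log2) of 12 named genes in wild-type macrophages at 0, 2, 8 and 24 h after LPS and IFN-γ, with a line for each of the 3 animals. Il6, Tnf, Il10 and Cxcl10 have passed their peak by 8 h and are lower at 24 h, Il19 is undetected at 24 h, between 5.29 and 5.90, and Arg1 and Saa1 are highest at 24 h, at 12.51 to 13.01 and 12.26 to 13.97.

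The windows around the transcription start were examined for short matches to known motifs in genes of these groups. A match is only a description of letters in the RefSeq sequence (build GRCm38.p6, from 250 bases before to 50 bases after the start, printed on the strand of the gene). The windows of 3 genes are shown, with matches to GAAANNGAAA (interferon response) or GGGANNTTCC (kappaB) in capitals. They are those of the gene with the largest decrease and of a cytokine and a chemokine that also fell. Il6 and Cxcl10 were picked by hand, so the 3 windows do not stand for the genes that fell. Of the 15 largest decreases 12 had a window, of which 2 held GAAANNGAAA and 0 held GGGANNTTCC.
Il19, chr1:130940066-130940365, minus strand: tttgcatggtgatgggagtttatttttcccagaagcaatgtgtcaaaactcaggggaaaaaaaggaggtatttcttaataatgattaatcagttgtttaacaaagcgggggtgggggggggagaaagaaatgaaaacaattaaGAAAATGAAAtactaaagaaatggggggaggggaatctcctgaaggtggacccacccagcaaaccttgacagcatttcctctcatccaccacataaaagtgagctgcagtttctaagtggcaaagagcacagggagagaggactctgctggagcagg
Il6, chr5:30012864-30013163, plus strand: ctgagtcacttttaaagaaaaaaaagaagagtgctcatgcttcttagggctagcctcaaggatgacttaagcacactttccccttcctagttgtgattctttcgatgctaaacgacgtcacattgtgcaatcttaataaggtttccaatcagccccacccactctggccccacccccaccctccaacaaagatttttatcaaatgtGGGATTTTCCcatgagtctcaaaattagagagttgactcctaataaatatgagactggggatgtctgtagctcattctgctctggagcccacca
Cxcl10, chr5:92348840-92349139, minus strand: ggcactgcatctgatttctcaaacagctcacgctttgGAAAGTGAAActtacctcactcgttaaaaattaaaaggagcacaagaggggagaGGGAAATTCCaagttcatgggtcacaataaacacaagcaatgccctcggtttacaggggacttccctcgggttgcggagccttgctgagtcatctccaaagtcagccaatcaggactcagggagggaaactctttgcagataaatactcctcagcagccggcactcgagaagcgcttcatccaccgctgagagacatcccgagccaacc

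Searched on both strands, GAAANNGAAA was in the windows of 7.34% of genes lower at 24 h (65 of 886 with a window) and of 2.58% of genes higher at 24 h (31 of 1201), against 4.25% of all tested genes with a window. A gene can have several windows. By single windows it was in 6.1% for genes lower at 24 h, 2.12% for genes higher and 3.5% for tested genes, against 3.44% of all 32851 windows. Among the antiviral interferon-stimulated genes that were lower, 9 of 20 with a window held it (45%). That list was chosen as interferon-stimulated, and its members that were not lower were not counted, so the 45% does not bear on the late fall. GGGANNTTCC was rarer and closer between the groups, at 2.37% of genes lower and 1.75% of genes higher at 24 h, against 1.66% of tested genes. The letters of these 2 motifs do not occur in each other, but a window can hold both, as that of Cxcl10 does.

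Many intracellular brakes and transducers of NF-kB signalling were lower at 24 h, as were many cytokines. Of 28 members tested, 15 were lower, 0 were higher and 13 were not called, Socs3 among them (median −0.69). Tnfaip3, the ubiquitin-editing inhibitor A20, was at 11.66, 11.16 and 11.76 at 24 h, against 13.48, 13.49 and 13.25 at 8 h (−1.88 ± 0.19, adjusted p = 7.5e-07). The survival genes Bcl2a1d and Bcl2a1b, which are not in that list, fell by 1.67 ± 0.16 and 1.39 ± 0.17. Their near-identical sequences may share signal. Among 25 immediate early factors and MAP kinase phosphatases, 9 were lower and 1 was higher (median −0.54). Dusp2, a nuclear phosphatase of MAP kinases, was at 9.02, 8.61 and 7.86 at 24 h, against 12.52, 12.40 and 11.42 at 8 h, a 12.3-fold decrease (adjusted p = 1e-05). Ier3 fell 3.67-fold and the AP-1 subunit Fosl2 fell 5.16-fold. The gene that rose was Klf4, a zinc finger factor, at 7.93, 7.43 and 10.11 at 24 h, against 7.10, 6.90 and 5.92 at 8 h. Most of that difference came from animal 6, and without animal 6 it was 0.69 and not called (adjusted p = 0.38). 

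Interferon-stimulated genes were lower at 24 h in most members tested. Of 43 antiviral genes, 29 were lower and 1 was higher (median −0.80), and medians within animals were −0.82, −0.84 and −0.67. Mx1, a GTPase that blocks influenza virus, was at 10.75, 10.33 and 11.45 at 24 h, against 12.76, 12.40 and 12.91 at 8 h (−1.85 ± 0.28, adjusted p = 6.1e-05). Ifi35 was at 10.32, 9.87 and 10.36 at 24 h, against 12.14, 11.98 and 12.43 at 8 h (−2.0 ± 0.23), and Oas1a, which makes the activator of RNase L, fell by 1.89 ± 0.36. Mx1 and Oas1a were then near their means before stimulation of 10.94 and 8.50. The member that was higher was Ly6e (+0.81, adjusted p = 0.0066), a call lost with the deposited log2 values and in 3 other settings.

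Of 13 interferon-inducible GTPases, which attack vacuoles that hold pathogens, 9 were lower and 0 higher (median −1.09). Medians were −1.29 and −1.41 in animals 2 and 3 and −0.46 in animal 6. Tgtp1 was at 8.46, 7.5 and 9.98 at 24 h, against 10.82, 10.51 and 11.17 at 8 h (−2.19 ± 0.43, adjusted p = 0.00059). Gbp10 fell by 1.51 ± 0.22 (adjusted p = 3.8e-05), while the call of Gbp5 (−1.76 ± 0.45, adjusted p = 0.0055) was lost without animal 2 or without animal 3. Among 25 STAT and IRF regulators 7 were lower and 1 was higher (median −0.41). Batf2, a partner of Irf1, fell 4.41-fold and Stat5a by 1.49 ± 0.21. Irf1, the interferon-induced activator, was at 14.24, 14.15 and 15.05 at 24 h, against 14.49, 14.40 and 14.74 at 8 h. Its times overlapped and it was not called (−0.07 ± 0.24, adjusted p = 0.86). Socs3, an inhibitor of cytokine receptors, was also not called (−0.20 ± 0.16, adjusted p = 0.34), at 15.01, 14.92 and 14.78 at 24 h, against 15.23, 15.01 and 15.09 at 8 h.

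**Figure D3:**
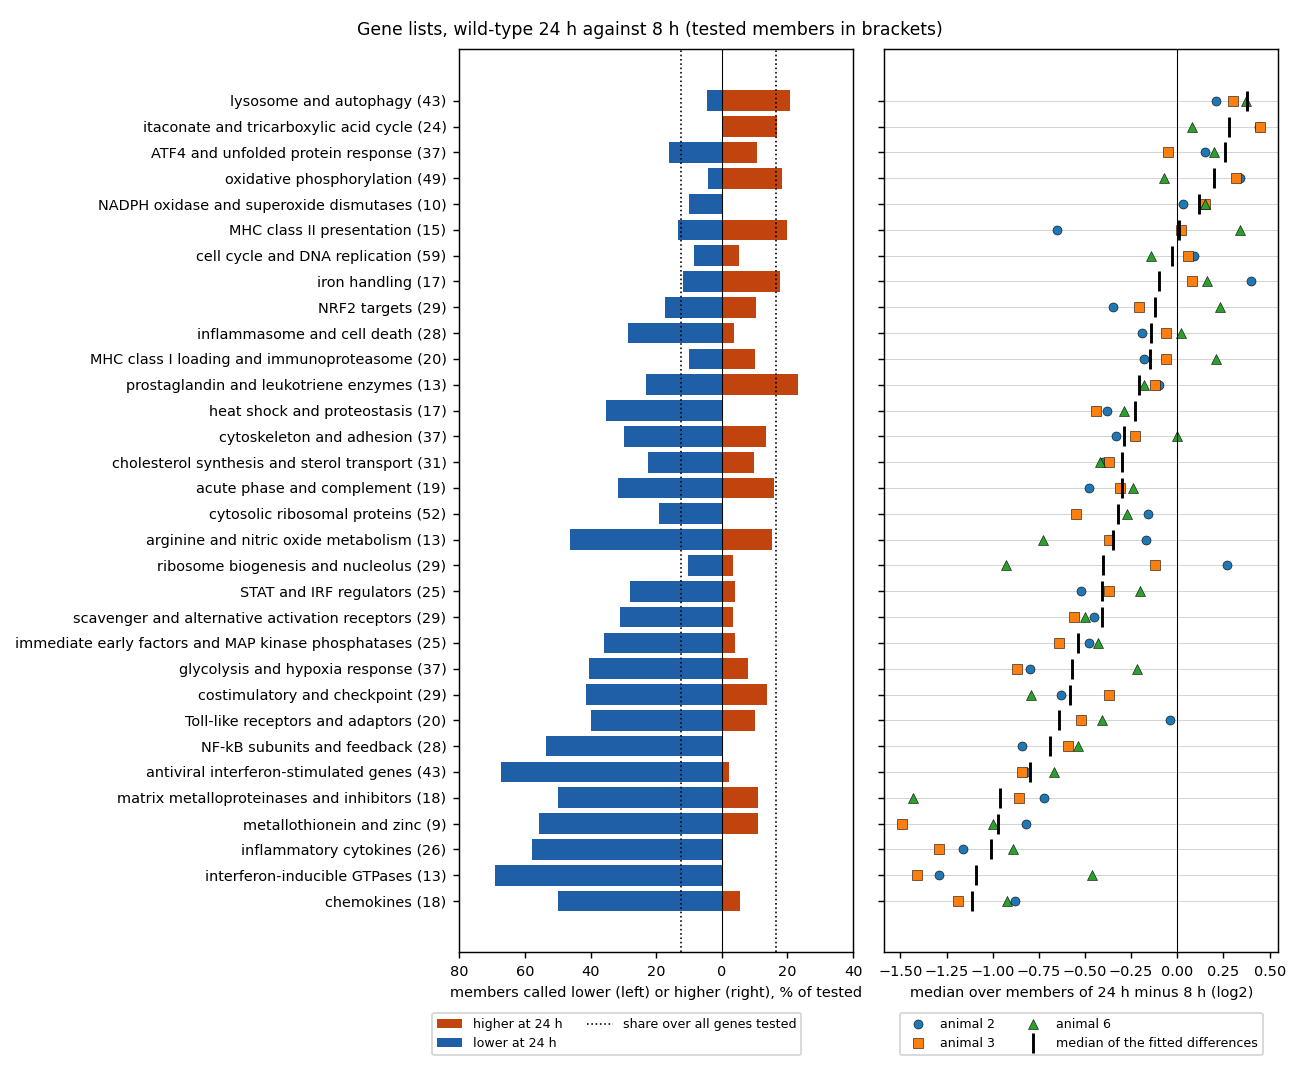
Left, share of tested members of each gene list called lower (to the left of 0) or higher (to the right) at 24 h than at 8 h, with dotted lines at the shares over all genes (12.4% and 16.6%). Right, median difference over members (24 h minus 8 h, log2) in each animal (points) and of the fitted differences (bars): chemokines, interferon-inducible GTPases and cytokines lie lowest (−1.11, −1.09 and −1.01), and lysosome and autophagy lies highest (0.38).

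Of the enzymes around arginine, more were lower than higher. Of 13 genes of arginine and nitric oxide metabolism, 6 were lower (46.2%, against 12.4% over all genes) and 2 were higher (15.4%, near the 16.6% over all genes). Nos2 was at 11.06, 9.72 and 12.23 at 24 h, against 12.82, 12.59 and 13.01 at 8 h (−1.80 ± 0.45, adjusted p = 0.0047). It stayed well above its mean of 7.20 at 0 h, and without animal 3 its fall was no longer called (−1.27, adjusted p = 0.072). Gch1 was at 12.32, 12.51 and 13.88 at 24 h, against 14.42, 14.59 and 14.37 at 8 h (−1.56 ± 0.30, adjusted p = 0.00048). The decrease was 2.11 and 2.08 in animals 2 and 3 and 0.50 in animal 6, in the cells that carry the floxed but intact gene. Spr, the last enzyme of tetrahydrobiopterin synthesis, was at 7.95, 8.31 and 7.15 at 24 h and was not detected on any 8 h array, a rise of at least 1.93-fold (adjusted p = 0.0032), which was not called without animal 2 or without animal 3.

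The 2 arginases changed oppositely. Arg1, the cytosolic enzyme, was at 13.01, 13 and 12.51 at 24 h, against 10.62, 9.94 and 11.12 at 8 h (+2.28 ± 0.31, 4.86-fold, adjusted p = 2.1e-05). Arg2, the mitochondrial enzyme, was at 9.26, 8.43 and 8.66 at 24 h, against 11.07, 10.64 and 10.79 at 8 h (−2.05 ± 0.20, 4.13-fold, adjusted p = 5.1e-07). At 0 and 2 h Arg1 averaged 5.11 and 5.05, so its rise began after 2 h, while Arg2 had risen by 2 h (7.57 at 0 h and 9.71 at 2 h). 

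Secreted proteins of the acute phase and of the matrix held more decreases than increases. In the list of 19 acute phase and complement genes, 6 were lower (31.6%, against 12.4% over all genes) and 3 higher (15.8%, near the 16.6% over all genes). Saa1, an apolipoprotein of the acute phase, was at 13.97, 12.64 and 12.26 at 24 h, against 11.07, 10.68 and 9.94 at 8 h (+2.39 ± 0.41, adjusted p = 0.0002), and Orm1, an acute phase glycoprotein, rose 4.20-fold with overlapping times (adjusted p = 0.0043). A second, much dimmer Saa1 probe was not called (0.81, adjusted p = 0.093). C3ar1, the receptor of complement C3a, rose by 1.05 ± 0.21. Its neighbours in the list went the other way: Ptx3, a soluble pattern receptor, was detected on all 8 h arrays and on no 24 h array and was at least 6.98-fold lower (adjusted p = 4.5e-05). Serping1, the C1 inhibitor, was at least 2.18-fold lower. Saa3 was not called (adjusted p = 0.58), at 14.95, 15.50 and 15.53 at 24 h, against 15.43, 15.47 and 15.58 at 8 h, on a probe at 0.82 or more of the highest intensity on each of the 6 arrays.

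Of 18 matrix proteases and inhibitors, 9 were lower (50%, against 12.4% over all genes) and 2 were higher (11.1%, against 16.6%), with a median of −0.96. Mmp13, a collagenase, was at 13.34, 12.22 and 13.49 at 24 h, against 15.63, 15.66 and 15.69 at 8 h (−2.64 ± 0.24, adjusted p = 1.7e-07). Its 2 dimmer probes fell by 3.48 and 4.32. The 8 h values of the brightest probe lay near the top of the scale, and whether this limited the difference was not tested. Mmp25 was at least 3.98-fold lower, and Serpinb2, an inhibitor of plasminogen activators, was at 10.80, 7.35 and 6.79 at 24 h, against 11.27, 10.88 and 10.52 at 8 h (adjusted p = 0.0056). Animals 3 and 6 carried that decrease, and the call was lost without either. In the prostaglandin and leukotriene list 3 of 13 were higher and 3 lower (23.1% each, against 16.6% higher and 12.4% lower over all genes). Alox5ap, which presents arachidonate to 5-lipoxygenase, was at 15.21, 15.10 and 14.57 at 24 h, against 13.07, 13.21 and 13.85 at 8 h (+1.59 ± 0.21, adjusted p = 1.2e-05). Ptger2, a receptor of prostaglandin E, rose by 1.68 ± 0.29. Ptgs2, the inducible cyclooxygenase, was at 9.93, 9.98 and 12.94 at 24 h, against 12.06, 12.61 and 13.12 at 8 h, with overlapping times (−1.65 ± 0.59, adjusted p = 0.04). Its call was lost in 7 other settings, without animal 2 and without animal 3 among them.

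Most macrophage receptors tested were not called. Of 29 scavenger and alternative activation receptors, 9 were lower, 1 was higher and 19 were not called (median −0.41), against 12.4% lower over all genes. Mrc1, the mannose receptor, was at 8.04, 6.59 and 9.15 at 24 h, against 11.25, 11.14 and 12.70 at 8 h, a 13.6-fold decrease (−3.77 ± 0.43, adjusted p = 2.4e-06). It averaged 13.17 at 0 h and 13.21 at 2 h, so its level had already dropped by 8 h. Axl, a receptor for apoptotic cells, fell 4.06-fold (adjusted p = 3e-05), and Clec5a fell by 2.04 ± 0.46 with a call lost without animal 6 (adjusted p = 0.058). The member that was higher, Stab1 (+0.89, adjusted p = 0.05 after rounding), overlapped between the times, and its other 2 tested probes were not called.

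Among 20 Toll-like receptors and adaptors, 8 were lower, 2 were higher and 10 were not called (median −0.64). Medians within animals were −0.04, −0.52 and −0.41. Tlr2, which senses bacterial lipopeptides, was at 12.60, 11.80 and 10.30 at 24 h, against 13.38, 13.36 and 13.17 at 8 h (−1.74 ± 0.38, adjusted p = 0.0018), and Tlr6, its partner, fell by 1.02 ± 0.17. Tlr13, a sensor of bacterial ribosomal RNA, went the other way, at 12.49, 12.54 and 11.30 at 24 h, against 9.96, 10.39 and 10.55 at 8 h (+1.81 ± 0.33, adjusted p = 0.0003). Of the 28 inflammasome and cell death genes 8 were lower and 1 was higher, Birc2 (+1.00 ± 0.16). Nlrp3, the inflammasome sensor, was detected on all 8 h arrays and on no 24 h array and was at least 3.05-fold lower (adjusted p = 4.9e-06).

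Of 29 costimulatory and checkpoint genes, 12 were lower and 4 were higher (median −0.58). Cd40, through which T cells activate macrophages, was at 12.69, 12.99 and 13.11 at 24 h, against 14.88, 14.88 and 15.38 at 8 h (−2.11 ± 0.20, adjusted p = 2.7e-07). Each of its other 4 tested probes was lower as well, by 0.88 to 3.11. Cd83 was at 9.68, 9.74 and 9.78 at 24 h, against 11.98, 11.79 and 12.92 at 8 h (−2.50 ± 0.26), and Cd86, a ligand of CD28, fell by 1.91 ± 0.47 with times that overlapped between animals. Vcam1, an adhesion ligand, was at least 5.21-fold lower (adjusted p = 1.3e-06). In antigen presentation 3 of 15 class II genes were higher (20%, against 16.6% over all genes) and 2 were lower, Cd40 and Cd86, which stand in both lists. The class II median was 0.01, and −0.65, 0.02 and 0.34 within animals. In addition, 2 of 20 class I and immunoproteasome genes were higher and 2 lower (10% each, below the shares over all genes, median −0.15). Psmb10 and Psme2, subunit and activator of the immunoproteasome, were those that fell, by 1.25 ± 0.21 and 1.32 ± 0.20. H2-M3, a class I molecule that presents formylated peptides, was higher by 0.90 ± 0.23, but not called without animal 3 (adjusted p = 0.1).

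Among metabolic lists, glycolysis and the hypoxia response held many genes that were lower. Of 37 genes of glycolysis and the hypoxia response, 15 were lower (against 12.4% over all genes) and 3 were higher (median −0.57). Ndrg1, a hypoxia-induced gene, was at 8.39, 7.51 and 9.87 at 24 h, against 11.96, 11.57 and 12.21 at 8 h, a 10.0-fold decrease (−3.32 ± 0.48, adjusted p = 3.7e-05). Bnip3, a mitophagy receptor, fell by 2.29 ± 0.45, and Adm, the peptide adrenomedullin, fell 5.92-fold with a call lost without animal 3. Slc2a3, a glucose transporter, was not detected on any 8 h array and rose at least 2.09-fold (adjusted p = 1.7e-05), and Car9, a carbonic anhydrase, rose by 1.24 ± 0.23.

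Of 24 genes of itaconate synthesis and the tricarboxylic acid cycle, 4 were higher (16.7%, near the 16.6% over all genes) and 0 were lower (median 0.28). Idh1, cytosolic isocitrate dehydrogenase, was at 11.62, 11.88 and 11.20 at 24 h, against 10.43, 10.52 and 10.60 at 8 h (+1.05 ± 0.22, adjusted p = 0.00097), and Sdhd, a membrane anchor of succinate dehydrogenase, rose by 0.77 ± 0.17. Acod1, which makes itaconate, was not called (−0.14 ± 0.12, adjusted p = 0.42), at 15.40, 15.29 and 15.23 at 24 h, against 15.48, 15.43 and 15.43 at 8 h, on a probe at 0.64 or more of the highest intensity on each of the 6 arrays. Of 49 genes of oxidative phosphorylation, 9 were higher (18.4%, also near the share over all genes) and 2 were lower, with a median of 0.20, and of 0.34, 0.32 and −0.07 within animals. Uqcr10, a subunit of complex III, rose by 0.98 ± 0.16, and Cox5a and Cox6a1 rose by 0.81 each. Those 3 calls were lost with the deposited log2 values. Ndufb7, of complex I, fell by 1.02 ± 0.17.

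Metals, sterols and stress proteins followed. Of 9 metallothionein and zinc genes, 5 were lower and 1 higher. Mt1, a metal-binding protein, was at 12.88, 13.17 and 13.20 at 24 h, against 15.49, 15.37 and 15.56 at 8 h (−2.39 ± 0.17, adjusted p = 1.4e-08), and Mt2 was at least 7.34-fold lower. The 8 h values of Mt1 also lay near the top of the scale. Their list had a median of −0.97, or −0.68 with undetected members set to their bound, the largest such shift among the pathway lists. Of 31 cholesterol genes 7 were lower and 3 higher (median −0.30). Ch25h, which makes 25-hydroxycholesterol, was at 10.00, 6.81 and 9.47 at 24 h, against 11.74, 11.17 and 13.76 at 8 h (−3.46 ± 0.66, adjusted p = 0.00052), and Hsd17b7 fell 5.93-fold.

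Heat shock genes were lower in 6 of 17 and higher in 0 (median −0.23). Hspa1a, the inducible HSP70, was at 7.88, 8.16 and 12.59 at 24 h, against 13.05, 12.70 and 13.41 at 8 h. It fell strongly in animals 2 and 3 and little in animal 6 (−3.52 ± 0.93, adjusted p = 0.0066), and was not called without animal 2 or without animal 3. Its neighbour Hspa1b, whose sequence is nearly identical, showed the same division. Stip1, a cochaperone, fell by 1.28 ± 0.20 (adjusted p = 7.3e-05). In the list of ATF4 targets and the unfolded protein response, 6 of 37 were lower (16.2%) and 4 higher (10.8%), near the shares over all genes. Chac1, which degrades glutathione, fell by 2.46 ± 0.46, and the stress sensor Ern1 rose by 0.89 ± 0.19.

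Of 43 lysosome and autophagy genes, 9 were higher (20.9%, near the 16.6% over all genes) and 2 were lower (4.65%, against 12.4%), and the median of 0.38 was the highest of the pathway lists, at 0.21, 0.30 and 0.37 in the 3 animals. Lipa, the acid lipase of the lysosome, was at 12.94, 13.41 and 13.78 at 24 h, against 11.95, 12.15 and 12.51 at 8 h (+1.17 ± 0.21, adjusted p = 0.00033), and Gm2a, a glycolipid activator protein, rose by 1.05 ± 0.17. Npc1, a lysosomal cholesterol exporter, rose by 1.00 ± 0.16 on its brightest probe and by 1.71 on another, but a further probe fell by 2.70, so its direction depends on the probe. Ctsh, a cathepsin, rose by 1.07 ± 0.25, a call lost with the deposited log2 values.

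Of 29 NRF2 targets 5 were lower (17.2%) and 3 higher (10.3%), and of 17 iron genes 3 were higher (17.6%) and 2 lower (11.8%), shares close to those over all genes of 12.4% lower and 16.6% higher. Gsta3, a glutathione transferase, was at 10.34, 11.44 and 11.12 at 24 h, against 9.24, 9.76 and 9.42 at 8 h (+1.49 ± 0.33, adjusted p = 0.0018), and Ephx1, an epoxide hydrolase, fell by 2.35 ± 0.26. Slc48a1, which carries heme out of lysosomes, rose by 1.21 ± 0.25. Hmox1, heme oxygenase, was higher in each animal but not called (0.81 ± 0.42, adjusted p = 0.15), as was the iron exporter Slc40a1 (0.73 ± 0.32, adjusted p = 0.09). The fitted median of the iron list was −0.10, while its medians within animals were 0.40, 0.08 and 0.16.

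Cytosolic ribosomal proteins were lower in 10 of 52 (19.2%, against 12.4% over all genes) and higher in 0 (median −0.32, and −0.16, −0.55 and −0.27 within animals). Rpl7a was at 11.51, 10.99 and 11.46 at 24 h, against 12.29, 12.41 and 12.20 at 8 h (−0.98 ± 0.15, adjusted p = 7.1e-05). Ribosomal proteins have many processed copies in the genome, so probes may pick up more than 1 locus. Few genes of the cell cycle and DNA replication were called, with 3 of 59 higher and 5 lower (median −0.03). Tpx2, a spindle assembly factor, fell by 2.67 ± 0.66, and Ccnd2, a G1 cyclin, was at 8.97, 7.24 and 7.93 at 24 h, against 11.70, 11.40 and 11.68 at 8 h, an 11.7-fold decrease (adjusted p = 7.3e-08). Of 37 genes of the cytoskeleton and adhesion 11 were lower (29.7%, against 12.4% over all genes) and 5 higher (13.5%, against 16.6%). Tpm1, a tropomyosin, was up by 1.75 ± 0.22 and Marcksl1, an actin regulator, was down 4.00-fold. The 10 genes of the NADPH oxidase list included 1 lower (Nox1) and 0 higher.

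The 15 largest increases held no cytokine or chemokine. Plxdc1 was at 9.77, 9.70 and 9.39 at 24 h and was undetected on the 8 h arrays, at least 6.82-fold higher (adjusted p = 1.2e-09). Its mean at 0 h was 10.10, so it had been lost by 8 h and was regained. Tsc22d3, the glucocorticoid-induced leucine zipper protein, was at 10.95, 10.99 and 11.89 at 24 h, against 6.97, 8.06 and 8.17 at 8 h (+3.54 ± 0.30, 11.7-fold, adjusted p = 7.7e-08). At 24 h Tsc22d3 was above its mean of 9.42 before stimulation. Nicn1 was at 10.33, 10.68 and 10.25 at 24 h, against 6.12, 6.66 and 8.2 at 8 h, where it was detected on 1 array (+3.43 ± 0.38). Gprc5b, an orphan G protein-coupled receptor, was at 7.80, 8.99 and 10.73 at 24 h, undetected at 8 h, and at least 5.01-fold higher. Its level at 24 h was most unequal between animals, and its means at 0 and 2 h were 6.11 and 6.37.

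Zbtb20, a zinc finger repressor, was at least 4.12-fold higher, Nuak1, a kinase related to AMPK, at least 5.36-fold, Tbc1d8, a Rab GTPase-activating protein, at least 7.74-fold, and Arhgap18, which inactivates RhoA, at least 4.00-fold. These 4 genes were detected on every 24 h array and on no 8 h array. Phlda3, a p53-induced inhibitor of Akt, was at 8.22, 8.73 and 8.86 at 24 h and undetected at 8 h (at least 3.36-fold, adjusted p = 2.5e-07). Magee1 was at 11.13, 11.30 and 12.31 at 24 h, against 8.34, 8.67 and 8.64 at 8 h (+3.03 ± 0.28), and its means at 0 and 2 h were 8.51 and 8.78. Slco4a1, an organic anion transporter, rose by 2.96 ± 0.43, and Slc46a3, a lysosomal transporter, was at least 4.06-fold higher. In the windows around the start of the 12 of these 15 genes that had one, none of 4 motifs was found (GAAANNGAAA, GGGANNTTCC, GTAAACA and TGATGNAA). Over all tested genes with a window the motifs were in 4.25%, 1.66%, 3.05% and 2.92%, so 0 of 12 was near these shares. For the 15 largest decreases, also 12 with a window, GAAANNGAAA was in 2, TGATGNAA in 1 and the others in 0.

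Detection itself marked 2 classes. There were 455 probes (357 genes) seen on all 3 arrays at 24 h and on none at 8 h, and 347 of these probes were called higher. In 192 of the 455 the probe had been detected on all wild-type arrays at 0 h, and in 85 it was seen on none at 0 and 2 h. In the reverse class there were 101 probes (74 genes), each of them called lower, of which 32 had been detected on all arrays at 0 h and 20 on none at 0 and 2 h. Over all tested probes 15% were called higher and 13% lower. The classes and the calls rest on the same arrays, so the counts of calls follow largely from how the classes were chosen. Detection was also more frequent at 24 h over the whole array. All 3 arrays detected 12294 probes at 24 h and 11682 at 8 h. With a detection limit of 0.05, chosen after seeing the data, the classes held 361 and 135 probes. Abcc3, a transporter of bile acids and drug conjugates, belonged to the first class: at 9.80, 9.84 and 8.09 at 24 h it was at least 5.25-fold higher than at 8 h, and its mean at 0 h was 9.12. In the reverse class Arhgap15, which inactivates Rac, was at least 7.69-fold lower at 24 h (adjusted p = 5.1e-07).

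The late step ran against the early response for a large share of genes. To avoid shared arrays, genes were grouped by the 2 h against 0 h change in wild-type cells, and by the 8 h against 0 h change in Gch1fl/flTie2cre cells. Of 582 genes higher at 2 h, 276 were lower at 24 h than at 8 h (47.4%, against 12.4% of all genes) and 18 were higher, with a median late step of −0.64. Of 855 genes lower at 2 h, 242 were higher at 24 h than at 8 h (28.3%, against 16.6%) and 44 were lower, with a median of 0.33. The groups drawn from the other genotype behaved likewise: of 1399 genes higher at 8 h in Gch1fl/flTie2cre cells, 559 were lower at 24 h in wild-type cells (40%) and 47 were higher, and of 1697 genes lower there, 639 were higher (37.7%) and 75 were lower. The 2 h and 0 h arrays came from the same 3 animals as the late step.

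Of the genes higher at 2 h, 288 were not called in the late step, and of those lower at 2 h 569 were not. Few genes were called in their early direction in the late step as well, and the change between 2 h and 8 h is not part of this grouping. Ppargc1b, a mitochondrial coactivator, was higher at 2 h than at 0 h and higher at 24 h than at 8 h (+1.38 ± 0.43, adjusted p = 0.018, lost in 4 other settings). The same held for Bbs9, a subunit of the BBSome, at least 1.63-fold higher at 24 h. Ppargc1b was not detected on every 8 h array and Bbs9 on none of them, so their late rise does not show a continued increase. Ciart, a repressor of the circadian clock, was lower at 2 h and also lower at 24 h than at 8 h, at 7.55, 7.11 and 7.74 at 24 h, against 10.12, 10.07 and 10.59 at 8 h (−2.79 ± 0.32). Ppp1r3b, which directs a phosphatase to glycogen, followed the same course (−2.46 ± 0.22, adjusted p = 1.7e-07). Among genes that had fallen by 8 h in Gch1fl/flTie2cre cells, Mrc1, Fcrls (−2.86 ± 0.35) and S100a4 (−3.27 ± 0.26) went on falling in wild-type cells, and among those that had risen, Arg1, Saa1 and the collagen receptor Gp6 (+2.50 ± 0.43) went on rising.

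**Figure D4:**
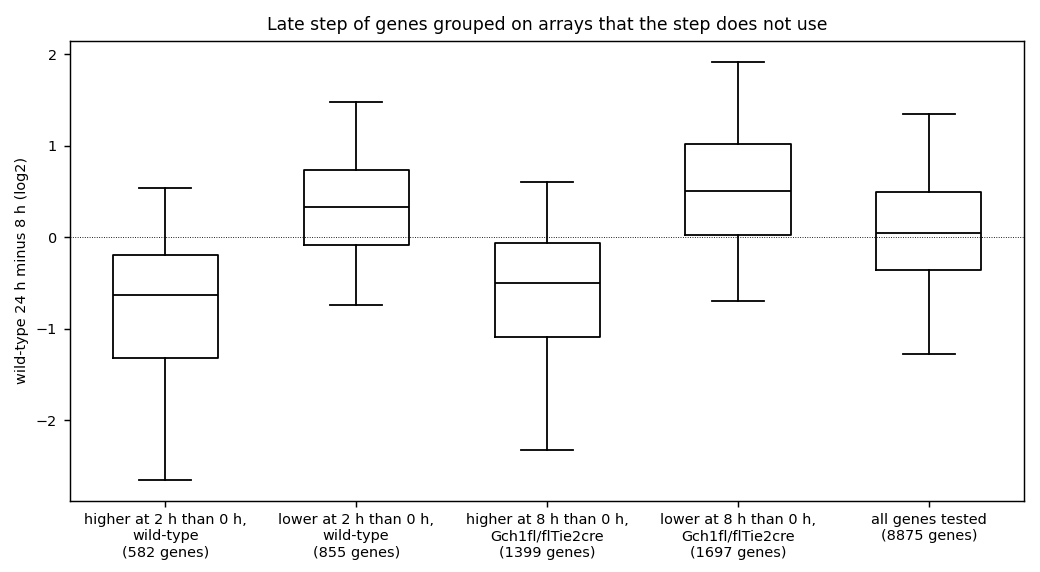
Late step in wild-type cells (24 h minus 8 h, log2) of genes grouped by earlier changes measured on other arrays, with all 8875 genes at the right. Boxes show the median and quartiles and whiskers the 5th and 95th percentiles over genes: groups that were higher early have medians of −0.64 and −0.50, groups that were lower early have 0.33 and 0.51, and all genes have 0.05.

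The same step was set beside that of Gch1fl/flTie2cre macrophages, whose arrays and animals are separate. In those cells 1580 genes were higher at 24 h (17.8%) and 1218 were lower (13.7%). Over 8875 genes the steps of the genotypes correlated at r = 0.892 and rho = 0.856, a description over genes that are not independent. Of the genes called in wild-type cells 1960 were called in the same direction in Gch1fl/flTie2cre cells (76.1% of the wild-type calls and 70.1% of the others), and 0 were called in opposite directions. The test of the difference between the steps called 0 of 16498 probes, with 974 at an unadjusted p below 0.05, and the other settings gave between 0 and 5, apart from array weights with 720. Of the genes in the next paragraph, Serpinb2 was called for the difference without the 24 h array of wild-type animal 2 (−3.73, adjusted p = 0.046). With array weights Gsta3 (2.48, adjusted p = 0.0027) and Gch1 on its brighter probe (−0.99, adjusted p = 0.028) were called.

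Single genes show how wide the intervals were. Gch1 fell by 1.56 in the wild-type cells and by 0.82 in the Gch1fl/flTie2cre cells, a difference (wild-type minus Gch1fl/flTie2cre) of −0.74 with a 95% interval of −1.62 to 0.13. Il6 fell by 3.59 in the wild-type cells and by 2.43 in the Gch1fl/flTie2cre cells (adjusted p of the difference = 0.76). Serpinb2 had the wild-type step of −2.57 described above and a step of −0.05 in Gch1fl/flTie2cre cells (95% interval of the difference −4.48 to −0.58, adjusted p = 0.7). Gsta3 rose by 1.1, 1.69 and 1.7 in the 3 wild-type animals and differed by −1.06, −0.97 and −0.1 in the 3 Gch1fl/flTie2cre animals (adjusted p of the difference = 0.33). The ribosomal protein list had a median of −0.32 in wild-type cells, against 0.16 in Gch1fl/flTie2cre cells, where 1 of 52 was higher and 0 were lower, and the difference between the lists was not tested.

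**Figure D5:**
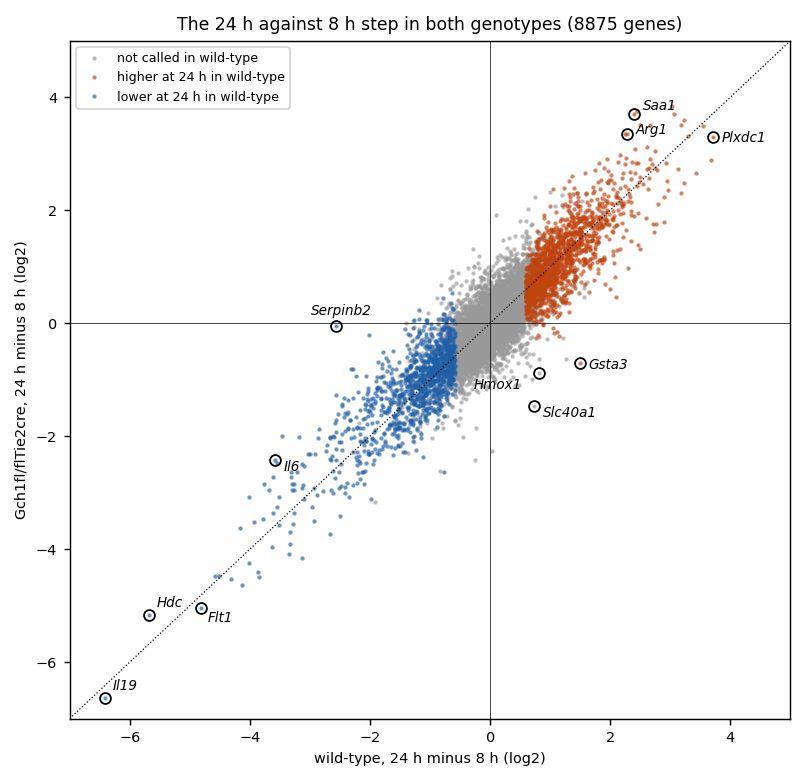
The step from 8 h to 24 h (24 h minus 8 h, log2) of 8875 genes in wild-type (horizontal) and Gch1fl/flTie2cre macrophages (vertical), coloured by the wild-type call, with the dotted line at equality. Most genes lie along the line (r = 0.892), Il19, Hdc and Flt1 lie at the lower left, and Gsta3, Hmox1, Slc40a1 and Serpinb2 lie away from it, without a call for the difference in the model used throughout.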

How the data were processed

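RNA from bone marrow-derived macrophages of 3 wild-type and 3 Gch1fl/flTie2cre mice, each at 0, 2, 8 and 24 h, was hybridised as biotin-labelled cRNA to single-colour Illumina MouseWG-6 v2 arrays. The deposited table holds raw probe intensity values exported by the authors from GenomeStudio, not normalized. Beside each intensity the authors deposited the scanner software's detection p-value for the probe. A second deposited table holds log2 values that the authors made by variance stabilisation (VSN) in R 2.14, and these were used as an alternative.

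Intensities were corrected and quantile normalized with neqc (offset 16) in limma 3.58.1 (R 4.3.3, statmod 1.5.0). Probes with a detection p below 0.01 on at least 3 arrays were kept, and the others were removed. limma was fitted to 8 group means over all 24 arrays, with the animal as a random block (consensus correlation 0.124), and p-values were adjusted by the Benjamini-Hochberg method over 16498 probes. All adjusted p-values in the text come from this model or its alternatives. The script was tested on simulated data.

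The same animals were used at each time, per the labels. Deviations of the 24 h and 8 h arrays of one animal from their group means correlated at 0.17, 0.268 and 0.312. Whether animals shared a culture or preparation is not given in the sources used here.

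Of the tested probes 14050 had 1 gene symbol in the platform annotation, 8 had several and 2440 had none. Gene lists covered 1111 genes, of which 859 were tested. The comparison, the gene lists and the tests were chosen with earlier results of these data known. Named genes were the 15 with the largest rise and fall without overlap between times, up to 3 called members of each list and direction, up to 5 genes of each detection class by brightness, up to 3 called in each direction in each group by earlier course, and a set fixed by name, of which Il12b was not tested and 1 is not reported here. Promoter windows were RefSeq sequence.

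Alternatives were other normalizations, detection filters, blocks, sets of arrays, array weights and leaving out each animal. No array had a molecule count, so the number of arrays limits the precision.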

Additional observations from a re-analysis of the deposited data

Results flagged for a closer look

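The items here moved one way in all 3 wild-type animals and the other way in all 3 Gch1fl/flTie2cre animals, as did 102 of the 8875 genes. None of the 4 named genes passed the limma test of the difference in the model used throughout, although Slc40a1 was called without animal 5 (2.67, adjusted p = 0.006) and, with array weights, Slc40a1, Gsta3 and Hmox1 were called (adjusted p = 0.00088, 0.0027 and 0.02). The differences of list medians were not tested. Gsta3 differed between the steps by 2.2 (wild-type minus Gch1fl/flTie2cre, log2, 95% interval 1.23 to 3.17, adjusted p = 0.33). For Hmox1 the difference was 1.7 (0.45 to 2.94, adjusted p = 0.69), with single-animal steps of 1.29, 0.59 and 0.55 in wild-type cells and −1.67, −0.95 and −0.03 in Gch1fl/flTie2cre cells. Slc40a1 differed by 2.2 (1.26 to 3.15, adjusted p = 0.33), with steps of 0.49, 0.91 and 0.8 in wild-type cells and −1.86, −2.01 and −0.54 in Gch1fl/flTie2cre cells. In Il1b the difference was −0.9 (−2.27 to 0.46, adjusted p = 1), and the steps in Gch1fl/flTie2cre cells were near 0, at 0.06, 0.02 and 0.11.

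The median of the cytosolic ribosomal protein list differed by −0.48, with medians of −0.16, −0.55 and −0.27 in the wild-type animals and 0.18, 0.11 and 0.07 in the Gch1fl/flTie2cre animals. The median of the iron handling list differed by −0.09 between the fitted medians, although its single-animal medians were 0.4, 0.08 and 0.16 in wild-type cells and −0.1, −0.15 and −0.03 in Gch1fl/flTie2cre cells.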

How the results depend on the processing

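The number of probes called between 24 h and 8 h in wild-type cells was 4629 and ranged from 3157 to 6171 over the settings that kept all 3 animals at probe level, and from 2745 to 4513 when 1 animal was left out, lowest without animal 3. Counted as genes with the adjustment over genes alone it was 2594. Without the replicate block it was 4170, with the animal as a fixed replicate block 4811, and with the 6 wild-type arrays paired by animal 3157. With the deposited VSN-processed log2 values it was 3416, without a filter on detection 3877. In Gch1fl/flTie2cre cells the count was 5082, and 2743 to 4829 with 1 animal left out, lowest without animal 4. For the difference between genotypes 0 probes were called, 1 (an unnamed probe) with the VSN values, 1 (Ednrb) with the fixed replicate block, 720 with array weights (whose estimation stopped before it converged) and 5 without the 24 h array of wild-type animal 2, and leaving out 1 animal gave 0 to 1 (Slc40a1 without animal 5). The causes of these changes were not tested. Among 187 named genes in up to 15 settings, 2518 values kept direction and call, 268 kept direction but lost the call, 8 gained it and 4 changed sign: Irf1, not called, was at 0.05 without the 24 h array of animal 2 and between −0.26 and 0.03 with 1 animal left out, and Saa3, not called, was at 0.05 without the 24 h array of animal 2. Of 178 named genes that were called, 113 kept the call in each setting and 65 lost it in at least 1. List medians moved by more than the spread between animals in 85 values and by less in 529. The shares called among genes grouped by their earlier course moved within 1.5 times. The settings that leave out the 24 h array of animal 2 or 6, the Gch1fl/flTie2cre alternatives, the earlier-course settings and the detection limit of 0.05 were chosen after seeing the data.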
